A study of Mus musculus with 20 samples.

Results

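Transcript levels of 10 genes of myostatin and activin signalling were followed through the gene symbols of the platform's annotation. For 9 of the 10, at least 1 probe set carried the symbol (18 probe sets in all, among the 12393 genes that have a probe set with exactly 1 symbol). They were Fst, Acvr2a, Acvr2b, Acvr1b, Tgfbr1, Bmpr1a, Smad2, Smad3 and Smad7. No probe set carried the symbol Mstn, and myostatin itself was not analysed here. Of the 9 genes, 8 were bright enough to be tested (17 probe sets), and Fst lay below the filter on low intensity.

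Total RNA from skeletal muscle was hybridised to Affymetrix 3' expression arrays, 1 array for each of 20 mice, 5 in each of 4 groups. The titles and source names give untrained wild-type mice (WTUT), trained wild-type mice (WTT), untrained transgenic mice (TGUT) and trained transgenic mice (TGT). The series title names the transgene only as over-expression of MHC-I and the training as endurance exercise. The labels name no construct, promoter, muscle, strain, sex, age, training protocol or batch. A free-text description calls all 20 mice transgenic and trained, which conflicts with the names of the other 3 groups and was not used. Mice are separate animals by their numbers, and no number occurs in 2 groups.

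The arrays held 21868 to 22686 values each, with median intensities from 156.7 to 174.9. The 7 defining skeletal muscle markers (actin, creatine kinase and fast fibre genes) were all measured, and their summed intensity lay between 99770 and 108400 on every array. For the transgene averaged over training states, H2-K1, a class I histocompatibility heavy chain, differed by -0.12 log2 (limma adjusted p = 0.724), and Myh7, the slow (type I) myosin heavy chain, fell by 1.27 on the log2 scale (limma adjusted p = 0.0201). Neither reading checks the genotype labels, because the abbreviation is not spelled out and the construct is not described. In whole muscle, fewer cells of a type and less RNA per cell cannot be told apart.

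Myostatin and the activins are secreted ligands of the TGF-β family, and myostatin is best known as a brake on muscle mass. A ligand binds a type II receptor (Acvr2a or Acvr2b), which activates a type I receptor (Acvr1b or Tgfbr1), which in turn phosphorylates Smad2 and Smad3. Follistatin, the product of Fst, captures the ligands outside the cell, and Smad7 blocks the type I receptors from within. Bmpr1a is the type I receptor of a parallel branch, in which bone morphogenetic proteins signal through other Smads.

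The genes whose brightest probe set passed the test were both receptors, Acvr1b and Acvr2b. Their promoters are shown because these are the members with a called difference by the brightest probe set. A call by the second Smad3 probe set is given below. The promoters are the 250 bases before the annotated transcript start, 5′ to 3′, from RefSeq on build GRCm38.p6. Acvr1b lies on the plus strand and its window is chr15:101173822-101174071. Acvr2b also lies on the plus strand, with the window chr9:119401928-119402177. The deposited intensities name no genome build, so these positions describe the RefSeq genes and not the probe sets. Capitals mark matches to the motifs searched.
Acvr1b: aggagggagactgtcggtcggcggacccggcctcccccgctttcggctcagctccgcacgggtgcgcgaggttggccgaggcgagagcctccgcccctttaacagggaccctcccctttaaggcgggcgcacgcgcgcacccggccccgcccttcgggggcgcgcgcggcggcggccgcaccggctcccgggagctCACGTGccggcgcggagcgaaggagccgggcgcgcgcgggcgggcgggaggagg
Acvr2b: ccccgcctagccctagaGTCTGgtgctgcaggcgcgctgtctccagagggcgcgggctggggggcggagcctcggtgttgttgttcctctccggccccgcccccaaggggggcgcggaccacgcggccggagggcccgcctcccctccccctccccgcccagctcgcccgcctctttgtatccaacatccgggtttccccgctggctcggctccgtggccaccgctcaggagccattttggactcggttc
Each motif was searched on both strands. CAGAC, which reads as GTCTG on the other strand, is the short element bound by Smad3 and Smad4. CANNTG is the E-box of muscle and clock factors and reads the same on both strands. AGAACA, which reads as TGTTCT on the other strand, is part of the glucocorticoid response element. The Acvr1b window held 1 E-box, CACGTG, starting 54 bases before the start site, and no match to either other motif. The Acvr2b window held 1 Smad element, written GTCTG, 233 bases before the start site, and no match to either of the others. Of 32851 promoter windows of the same length, 42.2% held CAGAC, 66.2% CANNTG and 16.1% AGAACA. Both windows were rich in G and C, 78.8% for Acvr1b and 72.8% for Acvr2b against a median of 52.4%. A match describes letters and is not a measured site.

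Levels are given as deposited intensities on a linear scale, and levels of different probe sets were not set against each other. Differences are on the scale of log2(intensity + 66.72), fitted with limma to all 13576 probe sets that passed the filter, each with its standard error and a p-value adjusted over those 13576. A gene stands for its brightest probe set, and a difference is called at an adjusted p under 0.05. The added constant makes the differences of dim genes smaller than their ratios of intensity. Folds are taken from these differences, so they are ratios of intensity + 66.72 and not of intensity. Intervals are 95% intervals of the fit. Where groups are said not to overlap, the share of all probe sets that separate in this way was not counted.

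Most members kept levels that the test could not separate. Training in wild-type mice called 0 of the 8 tested members (0.0% of all probe sets were called; 0 members and 7.87% of probe sets at an unadjusted p under 0.05), and all 8 members had values below 0, with a median of -0.08 log2. Training in transgenic mice called 1, Acvr1b (0.309% of all probe sets). At an unadjusted p under 0.05 there were 5, Acvr1b, Acvr2b, Smad3, Tgfbr1 and Bmpr1a, against 17.4% of all probe sets. The transgene in untrained mice called 1, Acvr2b (0.11% of all probe sets), which was also the single member at an unadjusted p under 0.05 (8.12% of probe sets). The transgene in trained mice called 0 (0.0516% of all probe sets), with 4 members at an unadjusted p under 0.05, Acvr1b, Acvr2a, Smad3 and Bmpr1a (12.5% of probe sets).

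The averaged comparisons called the same receptors. Training averaged over genotypes called Acvr1b alone (4.99% of all probe sets), with Acvr1b, Smad3 and Tgfbr1 at an unadjusted p under 0.05 (20.7% of probe sets). The transgene averaged over training states called Acvr2b alone (1.23% of all probe sets), with 4 members at an unadjusted p under 0.05, Acvr2b, Smad3, Smad7 and Bmpr1a (17.3% of probe sets). The interaction of genotype and training called 0 members and 0.0% of probe sets, with 3 members, Acvr1b, Acvr2b and Smad3, and 2.91% of probe sets at an unadjusted p under 0.05. The members' median differences lay between -0.08 and 0.10 log2 over the 7 comparisons, and the medians of all tested probe sets lay at about 0. A difference that missed the threshold is not shown to be absent, as the intervals below give.

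**Figure D1:**
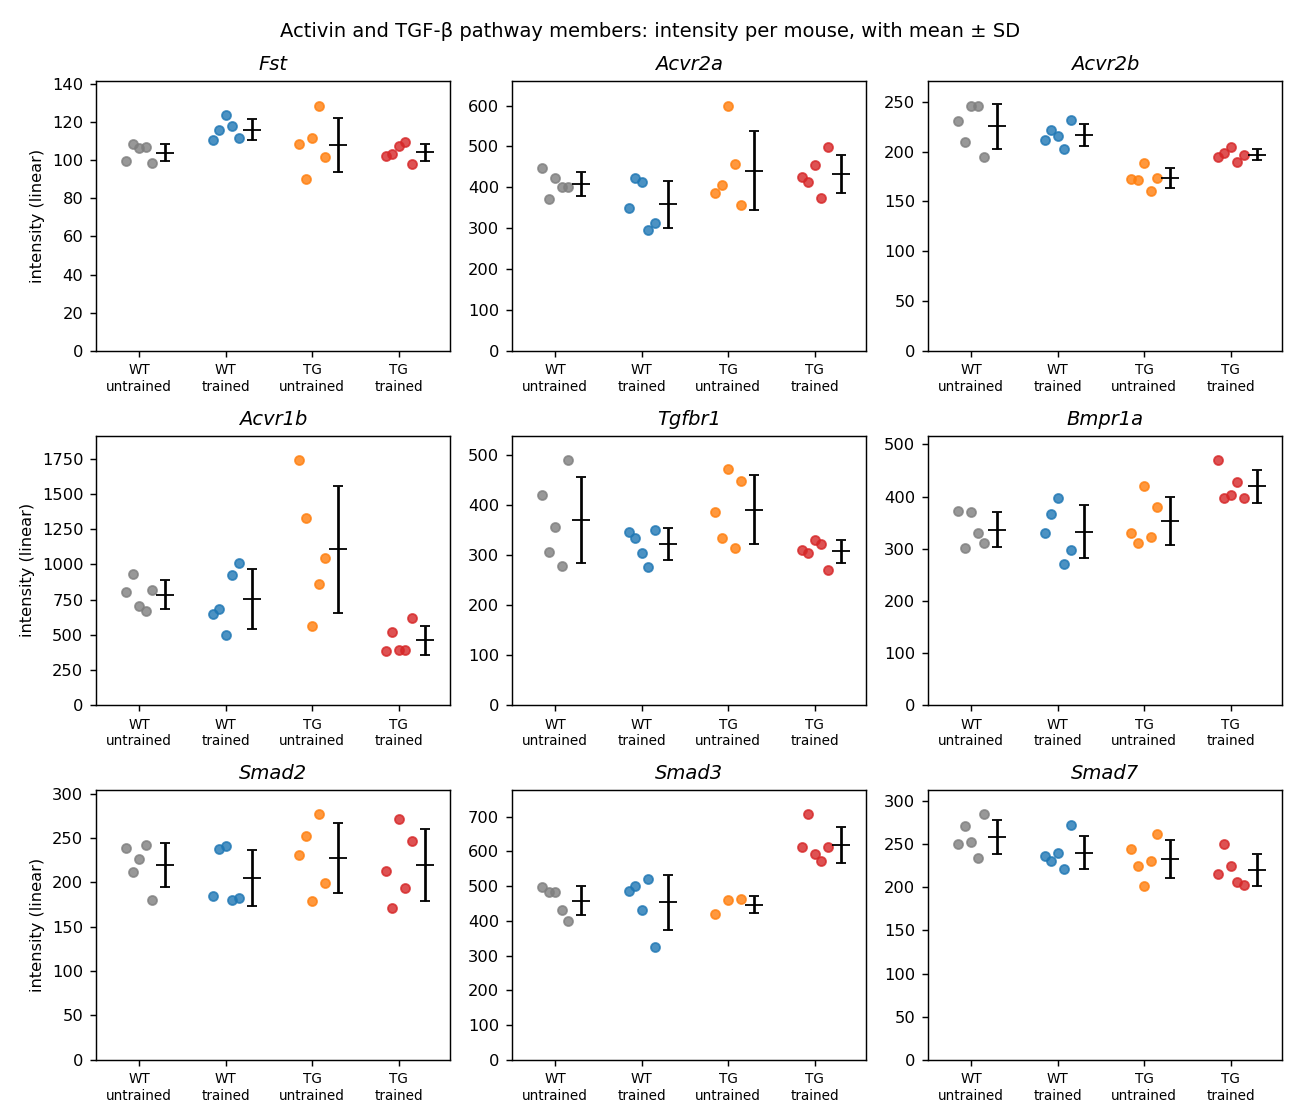
Intensity (linear scale, from 0) of the 9 measured members by their brightest probe set, 1 point per mouse, with the mean and SD of each group as a bar beside the points; Smad3 has 3 points in the untrained transgenic group because 2 cells are empty. The Acvr2b points of the untrained transgenic mice lie below those of all other groups, at the nearest 189.0 against 189.5 in a trained transgenic mouse. The Acvr1b points of the untrained transgenic mice spread from 560.8 to 1740.0.

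Fst, the secreted inhibitor of myostatin and activins, was dim, with a group mean between 104.0 and 116.1 and a filter set at about 126.2. In untrained wild-type mice it read 99.54 in WTUT-130, 108.4 in WTUT-135, 106.3 in WTUT-136, 107.0 in WTUT-138 and 98.66 in WTUT-142. In trained wild-type mice it read 110.5 in WTT-129, 116.0 in wtt-134, 124.0 in wtt-137, 117.8 in WTT-141 and 111.9 in WTT-144. All 5 trained wild-type mice lay above all 5 untrained ones. In untrained transgenic mice the values were 108.4 in TGUT-131, 90.06 in TGUT-139, 111.7 in TGUT-145, 128.7 in TGUT-146 and 101.9 in TGUT-147. In trained transgenic mice they were 102.2 in TGT-128, 103.5 in TGT-132, 107.5 in TGT-133, 109.6 in TGT-140 and 98.17 in TGT-143. Every trained transgenic mouse thus lay below every trained wild-type mouse, while the untrained transgenic mice overlapped both.

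Because Fst was below the filter, it was compared by an exact permutation test of the difference in mean log2 value. Training in wild-type mice gave a difference of 0.10 log2 (two-sided exact p = 0.00794, adjusted over the 4 comparisons 0.0159). The transgene in trained mice gave -0.10 log2 (two-sided exact p = 0.00794, adjusted 0.0159). This is the smallest p that the 252 splits of 5 against 5 allow, and both comparisons share the trained wild-type group. Any probe set whose groups separate fully reaches it, and this test was not adjusted over all probe sets. Transgenic mice differed with training by -0.03 log2 (exact p = 0.627) and the transgene in untrained mice by 0.03 (exact p = 0.611). In a limma fit without the filter, in which Fst competes with all probe sets, neither difference was called (adjusted p = 0.783 for training in wild-type mice and 0.49 for the transgene in trained mice). The interaction in that limma fit was -0.13 ± 0.07 log2 (SE; adjusted p = 1.0).

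Acvr2b, the type II receptor that myostatin binds, was lower in transgenic muscle. In untrained wild-type mice its single probe set read 230.8 in WTUT-130, 209.3 in WTUT-135, 246.3 in WTUT-136, 245.9 in WTUT-138 and 194.6 in WTUT-142. In untrained transgenic mice it read 172.2 in TGUT-131, 171.7 in TGUT-139, 189.0 in TGUT-145, 160.2 in TGUT-146 and 173.7 in TGUT-147. The highest untrained transgenic mouse lay below the lowest untrained wild-type mouse. In trained wild-type mice the values were 211.6 in WTT-129, 221.7 in wtt-134, 215.8 in wtt-137, 202.4 in WTT-141 and 231.3 in WTT-144. In trained transgenic mice they were 194.9 in TGT-128, 198.8 in TGT-132, 204.5 in TGT-133, 189.5 in TGT-140 and 196.3 in TGT-143. The trained groups overlapped by 1 mouse on each side, TGT-133 reading above WTT-141.

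Ordered by mean intensity (SD, n = 5), Acvr2b stood at 225.4 ± 22.9 in untrained wild-type mice, 216.6 ± 10.8 in trained wild-type mice, 196.8 ± 5.51 in trained transgenic mice and 173.4 ± 10.3 in untrained transgenic mice. The wild-type groups overlapped, and training differed between them by -0.04 log2 (interval -0.15 to 0.06). Averaged over training states, Acvr2b fell by 0.19 ± 0.04 on the log2 scale in transgenic mice (SE; 1.14-fold, limma adjusted p = 0.0126). This call held in 20 of 20 fits that left out 1 array and in 8 of 8 other settings in which the probe set was tested. A filter at the 60th percentile removed the probe set.

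In untrained mice Acvr2b fell by 0.28 ± 0.05 on the log2 scale in transgenic against wild-type animals (SE; 1.21-fold, limma adjusted p = 0.0272). This call was lost without TGUT-131 (adjusted p = 0.0767), TGUT-139 (0.0914), TGUT-146 (0.0806), WTUT-130 (0.0754), WTUT-135 (0.0516), WTUT-136 (0.103) or WTUT-138 (0.0959), with differences from -0.30 to -0.25 log2. It was also lost when the compared groups alone were fitted (adjusted p = 0.302) and without the 2 arrays with the most empty cells (adjusted p = 0.0513). In trained mice the transgenic difference of Acvr2b was -0.10 ± 0.05 log2 (adjusted p = 0.406). The lowest trained transgenic mouse (189.5) lay just above the highest untrained transgenic mouse (189.0). Training in transgenic mice differed by 0.14 ± 0.05 log2 (limma unadjusted p = 0.0148, adjusted p = 0.173). In that comparison 17.4% of all probe sets had an unadjusted p under 0.05. The interaction was 0.18 ± 0.07 log2 (unadjusted p = 0.0229, adjusted p = 1.0), so the effect of the transgene on Acvr2b was not shown to differ between trained and untrained mice.

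Slow fibre genes were also lower in transgenic mice, and their medians by training state are given beside the values of Acvr2b. For the transgene averaged over training states, 6 of 7 slow fibre markers fell (Myh7, Myl2, Myl3, Tnni1, Tnnt1 and Atp2a2; 1.23% of all probe sets were called), with a median of -1.44 log2 against about 0 for all probe sets. In untrained mice their median for the transgene was -1.26, with Myl2 and Tnni1 called (0.11% of all probe sets), where Acvr2b had -0.28. In trained mice their median was -1.62, with Myl2, Tnni1 and Tnnt1 called (0.0516% of all probe sets), where Acvr2b had an uncalled -0.10. Training in transgenic mice gave a slow fibre median of -0.17 with 0 called (0.309% of all probe sets), against 0.14 for Acvr2b, also uncalled. These contrasts between the list and the gene were not tested. The summed intensity of the 7 ranged from 5147 to 17130 in the untrained and 7073 to 14490 in the trained wild-type group, against 2783 to 5561 and 2911 to 4333 in transgenic mice. For the transgene averaged over training states, 1 of 4 endothelial markers fell, Cdh5 (1.23% of all probe sets were called). The sum of the 4 ranged from 1125 to 1735 and 1243 to 1425 in untrained and trained wild-type mice. In untrained and trained transgenic mice it ranged from 1109 to 1476 and 1008 to 1300. No marker of either list was at 0 on any array. The part of fibre type or of endothelial cells in the Acvr2b difference was not tested.

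Acvr2a, the other type II receptor, had no called difference. Its means were 441.3 ± 96.2 (SD, n = 5) in untrained transgenic, 432.8 ± 46.5 in trained transgenic, 408.2 ± 28.5 in untrained wild-type and 358.9 ± 57.4 in trained wild-type mice. Each neighbouring pair in that order overlapped. The highest reading, 600.2, came from TGUT-145, and the lowest, 296.7, from WTT-141. Transgenic against wild-type differed by 0.16 ± 0.08 log2 averaged over training states (SE; adjusted p = 0.295) and by 0.24 ± 0.11 in trained mice (adjusted p = 0.381). Its second probe set gave 0.13 ± 0.06 and 0.21 ± 0.08 for the same comparisons (adjusted p = 0.249 and 0.322). The directions for Acvr2a and Acvr2b were thus opposite, with only the second called, and the difference between the genes was not tested.

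Acvr1b, the type I receptor for activins and myostatin, was lower in trained than in untrained transgenic mice by its brightest probe set, 1433725_at. In untrained transgenic mice it read 1740.0 in TGUT-131, 1331.0 in TGUT-139, 560.8 in TGUT-145, 856.9 in TGUT-146 and 1047.0 in TGUT-147. In trained transgenic mice it read 382.2 in TGT-128, 517.7 in TGT-132, 392.3 in TGT-133, 391.8 in TGT-140 and 619.5 in TGT-143. The groups overlapped only through TGT-143, which lay above TGUT-145. In untrained wild-type mice the values were 805.7 in WTUT-130, 929.0 in WTUT-135, 701.3 in WTUT-136, 665.5 in WTUT-138 and 818.6 in WTUT-142. In trained wild-type mice they were 646.0 in WTT-129, 683.6 in wtt-134, 498.4 in wtt-137, 927.4 in WTT-141 and 1012.0 in WTT-144. The wild-type groups overlapped widely.

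In order of mean intensity (SD, n = 5), Acvr1b stood at 1107 ± 452 in untrained transgenic, 784 ± 104 in untrained wild-type, 753.6 ± 211 in trained wild-type and 460.7 ± 105 in trained transgenic mice, and each neighbouring pair overlapped. Training in transgenic mice gave an Acvr1b difference of -1.09 ± 0.22 log2 (SE; 2.12-fold, limma adjusted p = 0.0453). The call held without TGUT-145 (adjusted p = 0.00271) or TGUT-146 (0.0377). It was lost without TGT-128 (0.143), TGT-132 (0.0679), TGT-133 (0.058), TGT-140 (0.12), TGT-143 (0.0626), TGUT-131 (0.147), TGUT-139 (0.123) or TGUT-147 (0.0664), with differences of -1.19 to -0.91 log2. It was also lost with arrays centred on their medians (adjusted p = 0.0657), with no filter (0.0615) and with the compared groups alone (0.0798).

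Averaged over genotypes, Acvr1b fell with training by 0.58 ± 0.16 on the log2 scale (SE; limma adjusted p = 0.0387). The call held without TGT-132, TGT-143, TGUT-145, TGUT-146, WTT-141, WTT-144, WTUT-136 or WTUT-138. It was lost without any 1 of the other 12 arrays, TGT-128, TGT-133, TGT-140, TGUT-131, TGUT-139, TGUT-147, WTT-129, wtt-134, wtt-137, WTUT-130, WTUT-135 or WTUT-142, with adjusted p between 0.0559 and 0.078. The within-genotype values were -1.09 in transgenic and -0.08 ± 0.22 log2 in wild-type mice (interval -0.55 to 0.38). The interaction was -1.0 ± 0.32 log2 (unadjusted p = 0.00485, adjusted p = 1.0). Transgenic trained mice differed from wild-type trained mice by -0.62 ± 0.22 (adjusted p = 0.287), and untrained transgenic from untrained wild-type mice by 0.38 ± 0.22 (adjusted p = 0.731).

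The second Acvr1b probe set, 1422098_at, did not show the training difference. It read 389.9, 373.9, 284.4, 330.4 and 298.8 in TGUT-131, TGUT-139, TGUT-145, TGUT-146 and TGUT-147. In TGT-128, TGT-132, TGT-133, TGT-140 and TGT-143 it read 312.6, 318.3, 380.3, 286.6 and 358.2. These groups overlapped over most of their range. The training difference in transgenic mice was -0.01 ± 0.07 log2 (SE; interval -0.17 to 0.14, adjusted p = 0.957), against an interval of -1.55 to -0.62 for the brightest probe set. Each interval uses 1 spread for all 4 groups. By the brightest probe set the untrained transgenic mice spread most (SD 452), so its interval may be too narrow for this comparison. Wild-type mice read 305.8 to 343.7 untrained and 306.2 to 349.9 trained. Across 20 mice the probe sets of Acvr1b had r = 0.37 (permutation p = 0.11, adjusted 0.141) and rho = 0.25 (permutation p = 0.287, adjusted 0.369), and r = -0.04 without the 2 mice farthest from the median. The Acvr1b result therefore rests on 1 of its 2 probe sets.

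Glucocorticoid-responsive genes had values below 0 in the same comparison, without a call. For training in transgenic mice, 10 of 10 such genes had values below 0 with a median of -0.73 log2. Of these, 0 were called (0.309% of all probe sets), and 9 had an unadjusted p under 0.05 (17.4% of all probe sets). Averaged over genotypes, 10 of 10 were below 0 with a median of -0.44, and 1, Klf9, was called (4.99% of all probe sets). Their summed intensity ranged from 20770 to 23390 in trained and from 24130 to 45020 in untrained transgenic mice, and from 20560 to 45810 and 31370 to 46710 in the trained and the untrained wild-type group. None was at 0 on any array. Their part in the Acvr1b difference was not tested.

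**Figure D2:**
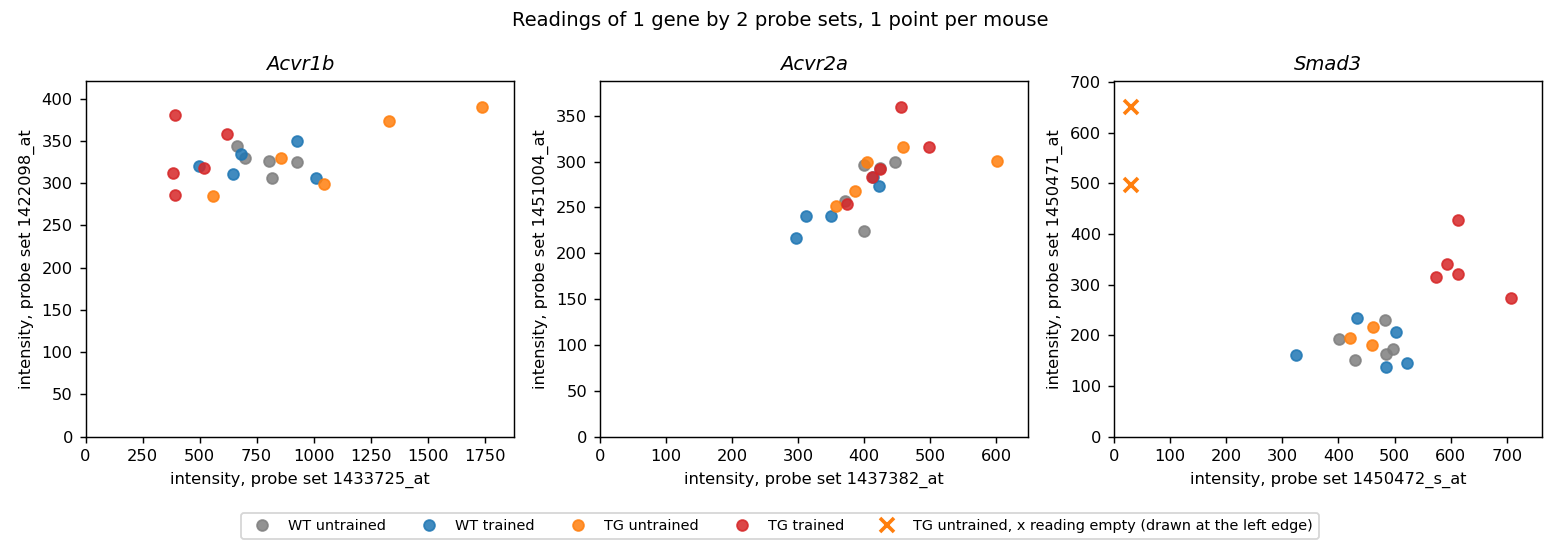
Intensity (linear axes from 0) of Acvr1b, Acvr2a and Smad3 by 2 probe sets each, 1 point per mouse coloured by group; crosses at the left edge of the Smad3 panel are TGUT-145 and TGUT-146, whose brightest probe set is empty and whose horizontal position has no value. The correlation of the paired readings is r = 0.75 for Acvr2a and r = 0.37 for Acvr1b (the difference was not tested), and the crosses hold the highest Smad3 readings of the second probe set.

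Tgfbr1, the type I receptor for TGF-β that myostatin can also use, had no called difference. Its brightest probe set averaged 390.7 ± 68.8 (SD, n = 5) in untrained transgenic, 370.4 ± 86.0 in untrained wild-type, 322.3 ± 31.7 in trained wild-type and 307.3 ± 23.1 in trained transgenic mice, and neighbouring groups overlapped. Training differed by -0.28 ± 0.12 log2 in transgenic (adjusted p = 0.216) and -0.15 ± 0.12 in wild-type mice (adjusted p = 0.848), and by -0.21 ± 0.08 averaged over genotypes (adjusted p = 0.13). All 3 Tgfbr1 probe sets were below 0 in the averaged comparison, from -0.21 to -0.06. They are not independent readings of 1 kind: 1420894_at followed the brightest probe set (r = 0.71, permutation p = 0.00046, adjusted 0.00104; rho = 0.71, permutation p = 0.00089, adjusted 0.002; r = 0.68 without 2 mice), and 1420893_a_at had no relation past the threshold (r = -0.17, permutation p = 0.482, adjusted 0.542; rho = -0.11, permutation p = 0.634, adjusted 0.713; r = 0.11 without 2 mice).

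Bmpr1a, the bone morphogenetic protein receptor, was read by 5 probe sets, of which none had a called difference. The brightest averaged 419.4 ± 31.2 (SD, n = 5) in trained transgenic, 353.2 ± 45.9 in untrained transgenic, 336.9 ± 32.7 in untrained wild-type and 332.7 ± 51.0 in trained wild-type mice. Trained transgenic mice read 396.9 to 470.2 and trained wild-type mice 271.1 to 398.0, overlapping at the edge. The transgenic difference was 0.29 ± 0.09 log2 in trained mice (SE; adjusted p = 0.228) and 0.17 ± 0.06 averaged over training states (adjusted p = 0.161). All 5 Bmpr1a probe sets had values above 0 in the averaged comparison, from 0.09 to 0.20. By 1425494_s_at, the lowest trained transgenic mouse (154.5) lay just above the highest trained wild-type mouse (151.5). The difference was 0.17 ± 0.08 log2 (limma unadjusted p = 0.0414, adjusted p = 0.38). In that comparison 12.5% of all probe sets had an unadjusted p under 0.05. This was the only Bmpr1a probe set that separated these groups, and its suffix marks a probe set that can bind more than 1 transcript.

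The Bmpr1a probe sets shared their pattern over the 20 mice in part. With the brightest, 1425491_at had r = 0.81 (permutation p = 3e-05, adjusted 0.00027; rho = 0.76, permutation p = 0.00025, adjusted 0.00075; r = 0.73 without 2 mice). 1425494_s_at had r = 0.77 (permutation p = 0.00011, adjusted 0.00042; rho = 0.76, permutation p = 0.00016, adjusted 0.00072; r = 0.77 without 2 mice). 1425493_at, empty in wtt-137 and TGT-133, had r = 0.55 over 18 mice (permutation p = 0.0194, adjusted 0.0291; rho = 0.55, permutation p = 0.0209, adjusted 0.0373; r = 0.51 without 2 mice). 1451729_at had r = 0.13 (permutation p = 0.592, adjusted 0.592; rho = 0.08, permutation p = 0.728, adjusted 0.728; r = 0.07 without 2 mice). The 9 relations between probe sets were tested with 100000 resamples and pool mice of all 4 groups. Mice were permuted across groups, so a group difference shared by both probe sets can add to a relation. Agreement within groups was not tested. For Acvr2a the relation was r = 0.75 (permutation p = 0.00014, adjusted 0.00042; rho = 0.89, permutation p = 1e-05, the smallest the resamples can give, adjusted 9e-05; r = 0.78 without 2 mice).

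**Figure D3:**
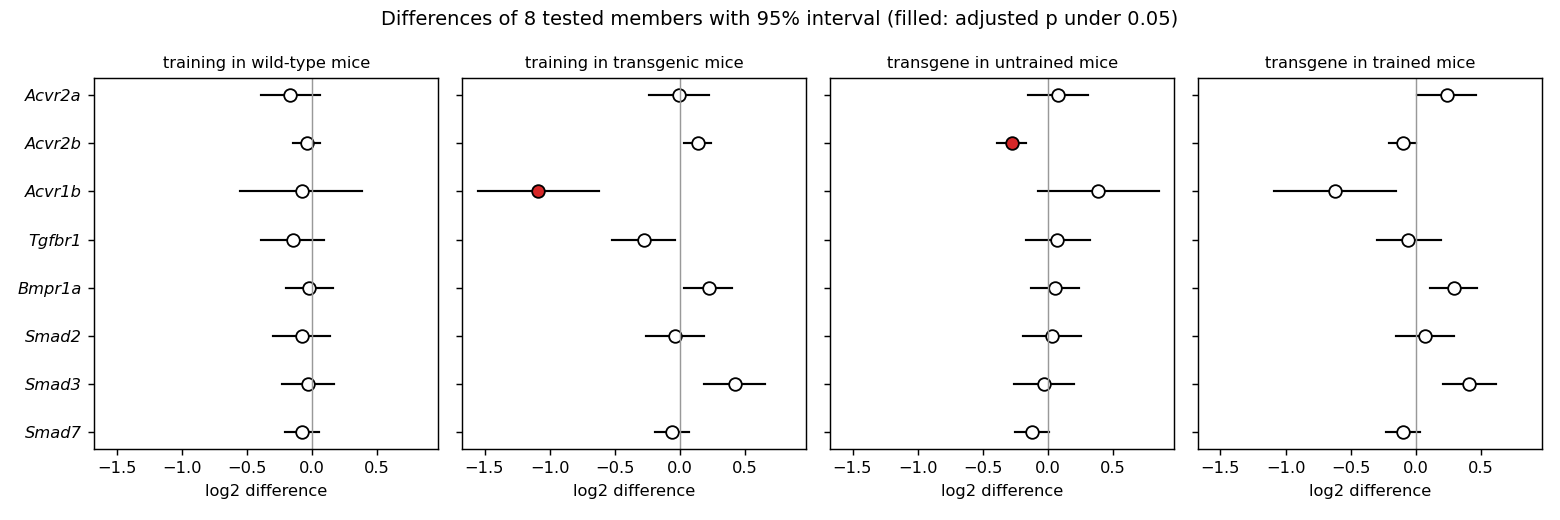
Log2 difference with its 95% interval (horizontal line) for the 8 tested members in the 4 comparisons of single groups, by the brightest probe set; filled points have an adjusted p under 0.05. Filled are Acvr1b for training in transgenic mice (-1.09) and Acvr2b for the transgene in untrained mice (-0.28).

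Smad3, a transcription factor that the activated type I receptors phosphorylate, had a group order that depended on the probe set. By the brightest, 1450472_s_at, trained transgenic mice were highest and read 612.4 in TGT-128, 706.6 in TGT-132, 592.7 in TGT-133, 573.2 in TGT-140 and 612.3 in TGT-143. In untrained transgenic mice it read 419.8 in TGUT-131, 459.6 in TGUT-139 and 461.8 in TGUT-147, and the cells of TGUT-145 and TGUT-146 are empty. Every trained transgenic mouse lay above every measured untrained one. In trained wild-type mice it read 485.4 in WTT-129, 501.6 in wtt-134, 432.5 in wtt-137, 521.3 in WTT-141 and 324.4 in WTT-144. In untrained wild-type mice it read 496.3 in WTUT-130, 483.9 in WTUT-135, 482.9 in WTUT-136, 430.2 in WTUT-138 and 400.2 in WTUT-142. Trained transgenic mice lay above these groups too, without overlap.

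The Smad3 means were 619.4 ± 51.4 (SD, n = 5) in trained transgenic, 458.7 ± 41.4 in untrained wild-type, 453.0 ± 79.1 in trained wild-type and 447.1 ± 23.6 (n = 3) in untrained transgenic mice, and the last 3 overlapped. Training in transgenic mice differed by 0.42 ± 0.11 log2 (SE; limma adjusted p = 0.0788), and the transgene in trained mice by 0.41 ± 0.10 (adjusted p = 0.148), so neither was called. The interaction was 0.44 ± 0.15 log2 (unadjusted p = 0.00739, adjusted p = 1.0). Averaged over genotypes, training differed by 0.19 ± 0.07 (adjusted p = 0.129). Without TGUT-145 the training difference in transgenic mice passed (adjusted p = 0.0353), though that mouse has no value in this probe set, and without WTT-144 the averaged training difference passed (0.24, adjusted p = 0.0171).

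The second Smad3 probe set, 1450471_at, was highest in the mice whose brightest probe set is empty. It read 496.1 in TGUT-145 and 650.3 in TGUT-146, against 194.3 in TGUT-131, 181.4 in TGUT-139 and 216.7 in TGUT-147. In trained transgenic mice it read 322.0 in TGT-128, 273.1 in TGT-132, 340.0 in TGT-133, 315.9 in TGT-140 and 428.0 in TGT-143. Untrained wild-type mice ranged from 150.3 to 230.5 and trained wild-type mice from 137.3 to 233.3, so the trained transgenic mice lay above all wild-type mice. The untrained transgenic group was split, with 3 mice inside the wild-type range. By this probe set the mean of untrained transgenic mice, 347.7 ± 213 (SD, n = 5), was above that of trained transgenic mice, 335.8 ± 57.1, and the groups overlapped. Averaged over training states, this Smad3 probe set rose by 0.67 ± 0.16 log2 in transgenic mice (SE; 1.59-fold, limma adjusted p = 0.049).

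That call was near its threshold. It held without TGUT-131, TGUT-139, TGUT-147 or wtt-137 and was lost without any 1 of the other 16 arrays (adjusted p between 0.0558 and 0.101; differences of Smad3 by this probe set from 0.55 to 0.70 log2). Without TGUT-146 it was 0.55 (adjusted p = 0.0558) and without TGUT-145 0.59 (adjusted p = 0.0782). By the brightest probe set the same comparison gave 0.19 ± 0.07 log2 (adjusted p = 0.191), with the 2 empty mice dropped. The training difference in transgenic mice, 0.42 by the brightest, was 0.09 ± 0.23 by 1450471_at (adjusted p = 0.897). Over the 18 mice with both values, the Smad3 probe sets had r = 0.66 (permutation p = 0.00259, adjusted 0.00466) and rho = 0.53 (permutation p = 0.0249, adjusted 0.0373), and r = 0.70 without 2 mice. These values pool the groups, and trained transgenic mice lay above all wild-type mice by both probe sets. Agreement of the Smad3 probe sets from mouse to mouse within groups was not tested. The suffix of 1450472_s_at marks a probe set that can bind more than 1 transcript, so its reading of Smad3 is less certain.

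Smad2, the partner of Smad3 downstream of the same receptors, stayed near 0 in every comparison. Its means were 227.8 ± 39.3 (SD, n = 5) in untrained transgenic, 219.8 ± 25.1 in untrained wild-type, 219.4 ± 40.4 in trained transgenic and 205.4 ± 31.5 in trained wild-type mice, all overlapping. The differences between single groups lay between -0.08 and 0.07 log2, and the interval of training in transgenic mice ran from -0.26 to 0.18. Smad7, the inhibitory Smad, averaged 258.4 ± 19.6 in untrained wild-type, 240.0 ± 19.3 in trained wild-type, 232.6 ± 22.2 in untrained transgenic and 220.1 ± 18.8 in trained transgenic mice. Its transgenic difference was -0.11 ± 0.04 log2 averaged over training states (unadjusted p = 0.0218, limma adjusted p = 0.208), and all groups overlapped with their neighbours.

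In the rest of the pathway the called genes were Col3a1 and Cdkn1a, a share near that of all probe sets. Of 65 other genes listed, 58 had a probe set and 42 were tested. In 6 of the 7 comparisons 0 of the 42 were called, and training averaged over genotypes called 1 higher and 1 lower, where 4.99% of all probe sets were called. At an unadjusted p under 0.05, training in wild-type mice gave 3 of the 42 (7.87% of all probe sets) and training in transgenic mice 11 (17.4%). The transgene gave 1 in untrained mice (8.12%) and 6 in trained mice (12.5%). Training averaged gave 10 (20.7%), the transgene averaged 3 (17.3%) and the interaction 3 (2.91%). The counts were not tested against the shares of all probe sets. The median differences of the 42 genes lay between -0.06 and 0.01 log2 over the 7 comparisons.

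Among ligands, 0 of 8 tested were called in any comparison. Tgfb2, a TGF-β ligand, had the ligand value farthest from 0 for the transgene averaged over training states, 0.27 log2 (adjusted p = 0.253), with means of 319 ± 142.8 and 306.2 ± 15.6 (SD, n = 5) in untrained and trained transgenic against 231.5 ± 31.8 and 254.8 ± 55.5 in wild-type mice. Inhbb, the activin βB subunit, lay between 263.7 and 274.1 in all groups. Gdf11, the closest relative of myostatin, and Inhba, the activin βA subunit, were below the filter. Among inhibitors and ligand-processing genes, 0 of 8 were called. Fstl3, a follistatin relative that binds myostatin, differed by -0.05 log2 with training averaged over genotypes (adjusted p = 0.66). Furin, the protease that cleaves the precursors of these ligands, differed by -0.11 (adjusted p = 0.218). Dcn, the matrix proteoglycan decorin that binds TGF-β and myostatin, differed by -0.35 for training in transgenic mice (adjusted p = 0.194).

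Of 6 other receptors tested, 0 were called. Tgfbr2, the type II receptor for TGF-β, differed by -0.15 log2 for training in transgenic mice (adjusted p = 0.226), and Acvr1, a type I receptor for bone morphogenetic proteins, by 0.16 for the transgene in trained mice (adjusted p = 0.322). Of 8 other Smads and regulators, 0 were called. Smad4, the common partner of the receptor-activated Smads, differed by -0.16 with training averaged over genotypes (adjusted p = 0.177). Tgif1, a repressor that joins Smad complexes, differed by -0.55 (adjusted p = 0.0587). Nedd4l, a ubiquitin ligase that targets activated Smads, differed by -0.71 for training in transgenic mice (adjusted p = 0.0993).

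Of 12 tested target genes, 2 changed with training averaged over genotypes (4.99% of all probe sets were called), and 5 of the 12 had an unadjusted p under 0.05 (20.7% of all probe sets). Col3a1, a collagen III chain, rose by 1.02 log2 (limma adjusted p = 0.04), from 382.8 ± 200 to 982.2 ± 597 (SD, n = 5) in wild-type and from 506.7 ± 380 to 851.8 ± 115 in transgenic mice. Cdkn1a, which encodes the p21 brake on cell division, had a difference of -1.13 log2 (limma adjusted p = 0.0164), from 2518 ± 597 to 1574 ± 716 in wild-type and from 2320 ± 1041 to 683.5 ± 124 in transgenic mice. Pmepa1, a feedback inhibitor of Smad signalling, differed by 0.08 (adjusted p = 0.678), and Id1, a target of the bone morphogenetic protein branch, by -0.03 (adjusted p = 0.931). The 2 called targets thus moved in opposite directions.

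**Figure D4:**
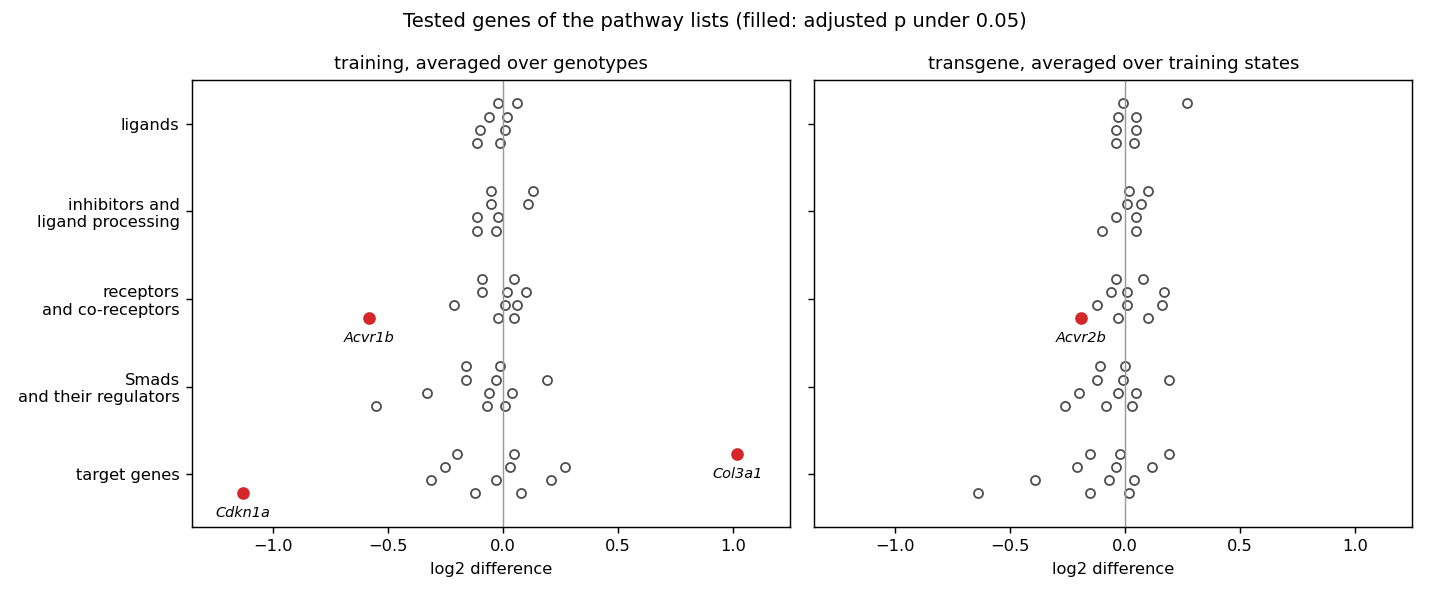
Log2 difference of each tested gene of the 5 pathway lists, members included, for training averaged over genotypes (left) and the transgene averaged over training states (right), 1 point per gene; vertical spread within a list only separates the points. Filled and named are the genes with an adjusted p under 0.05, Acvr1b, Col3a1 and Cdkn1a on the left and Acvr2b on the right.

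The genes with the pattern most like a called receptor were found by Pearson correlation over the 20 arrays with each of the other 8485 genes tested. Nearest to Acvr1b were Errfi1, an inhibitor of EGF receptor signalling (r = 0.93), Gspt1, a translation termination factor (r = 0.93), and Abi1, an adaptor of actin remodelling (r = 0.92). Errfi1 averaged 1372 ± 587 (SD, n = 5) in untrained and 490.6 ± 113 in trained transgenic mice, against 1000 ± 388 untrained and 1081 ± 415 trained in the wild-type groups. Its training difference in transgenic mice was -1.29 log2 (limma adjusted p = 0.0509), next to -0.40 for Gspt1 (adjusted p = 0.0695) and -0.33 for Abi1 (adjusted p = 0.0802). Averaged over genotypes, the training difference of Gspt1 was -0.27 log2 (adjusted p = 0.0316).

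Nearest to Acvr2b were Phlda3, a p53 target that restrains Akt (r = 0.86), Hsph1, a large heat shock protein (r = 0.84 over 19 arrays), and Anxa2, a membrane-binding annexin (r = 0.78 over 19 arrays). Phlda3 averaged 1150 ± 275 (SD, n = 5) in untrained wild-type, 992.6 ± 180 in trained wild-type, 454.3 ± 106 in untrained transgenic and 670.2 ± 147.1 in trained transgenic mice. For the transgene averaged over training states, Phlda3 fell by 0.87 (limma adjusted p = 0.0011), Hsph1 by 0.39 (adjusted p = 0.0131) and Anxa2 by 0.28 (adjusted p = 0.0246), all in log2 units. In untrained mice alone the Phlda3 difference was -1.22 log2 (adjusted p = 0.00796). These correlations were chosen as the highest among 8485 on the same arrays and describe the arrays only. A difference of these genes in the comparison that called their receptor follows in part from that choice. Its p-value is therefore no separate evidence.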

How the data were processed

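Total RNA from skeletal muscle of 20 mice was labelled with biotin, per the labels, and read on 1 array per mouse. The deposited values are intensities per probe set on a linear scale. Array medians ran from 156.7 to 174.9, so scaling between arrays by the authors was presumed and not checked. The main fit scaled the arrays no further. The summary method and the reason for 1745 empty cells remain unstated. Without the 64 control probe sets, 22626 remained, 20380 with 1 gene symbol, 691 with several and 1555 with none in the platform annotation.

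Intensities were used as log2(intensity + 66.72), the constant being the 20th percentile of the table. A filter blind to group, at the 40th percentile of the mean (7.59 on the log2 scale), kept 13576 probe sets, of which 12467 with 1 symbol stand for 8486 genes. Limma 3.58.1 in R 4.3.3 fitted 4 group means with a variance trend (16 residual and 3.47 prior degrees of freedom). Empty cells were dropped. P-values are two-sided and adjusted by the Benjamini-Hochberg method within each of 7 comparisons. The fit was also run on simulated data, scored only for the transgene averaged over training states and with equal spread in all groups. Its outcome is not given here and bears on no other comparison.

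The members, the pathway and marker lists and the naming rule (all 10 members by their brightest probe set, plus listed pathway genes and the 3 genes most like each called member) were chosen with earlier results of these data known. Genes named from the pathway lists were picked by role or value after the fit. The second Smad3 probe set was followed through the alternatives after its call was seen. Alternatives changed 1 choice at a time: the scaling (quantile normalization, or arrays centred on their medians), the added constant (1, or the table median of 164.2), the filter (none, or the 60th percentile), the variance estimate (no trend, or robust), the groups fitted, the probe sets counted and the arrays kept (each left out in turn, or the 2 with the most empty cells left out).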

Additional observations from a re-analysis of the deposited data

Results flagged for a closer look

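Within the groups of 4 or 5 mice of each member's probe sets, 71 groups were checked for a mouse far from the others by Dixon's 95% limit, and 0 passed it, where chance alone would pass about 1 in 20. No interaction of genotype and training was called for a member.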

How the results depend on the processing

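The Acvr2b difference for the transgene averaged over training states kept its call in each setting that tested it, and every other member call was lost under some setting. Acvr1b (training in transgenic mice, and averaged) and Acvr2b (transgene in untrained mice) had adjusted p-values between 0.0272 and 0.0453. Counts for training in transgenic mice, 42 in all, were 153 with quantile normalization, 11 with arrays centred on their medians, 69 with a constant of 1, 6 with no filter, 99 with a filter at the 60th percentile, 65 with no variance trend, 67 with robust variance, 1 with the compared groups alone and 125 without the 2 arrays with the most empty cells. The share of higher calls moved with the scaling. It was 18 of 42 as reported, 93 of 153 with quantile normalization and 2 of 11 with centred arrays for training in transgenic mice, 2 of 15 as reported and 5 of 19 with quantile normalization for the transgene in untrained mice, and 44 of 167 as reported and 113 of 234 with quantile normalization for the transgene averaged. Members called for training in transgenic mice, 1 in all, were 0 with centred arrays, with no filter and with the compared groups alone. For training averaged over genotypes, 678 in all, the counts were 409 with centred arrays, 448 with no filter and 409 without the 2 arrays, each with 0 members called in place of 1. For the transgene in untrained mice, 15 in all, the compared groups alone gave 0, and members called were 0 there, with the 60th percentile filter, which removes Acvr2b, and without the 2 arrays. For the transgene in trained mice, 7 in all, the counts were 13 with the 60th percentile filter, 26 with the compared groups alone and 12 without the 2 arrays. For the transgene averaged, 167 in all, they were 111 with no filter and 399 without the 2 arrays. Members called there were 2 when each tested probe set of a member was counted (Acvr2b and Smad3) and 0 with the 60th percentile filter. The cause was not tested, beyond the fewer arrays or genes that a setting itself leaves.

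Leaving out 1 array gave 0 to 4 probe sets called for training in wild-type mice, 2 to 764 for training in transgenic mice, 2 to 26 for the transgene in untrained mice, 2 to 1.4e+02 for the transgene in trained mice, 279 to 1285 for training averaged and 79 to 525 for the transgene averaged. Members called ranged from 0 to 2 for training in transgenic mice, 0 to 1 for the transgene in untrained mice and 0 to 2 for training averaged. Of 63 member values, 46 kept their sign in every fit and 17 changed it in 47 of 1489 alternative fits. All 17 were uncalled, with a size of at most 0.13 log2. Outside the fits that left out 1 array, the reversed values were 0.017 for Acvr2a and training in transgenic mice with quantile normalization and, without the 2 arrays, 0.042 for Acvr1b and training in wild-type mice, -0.016 for the second Smad3 probe set and training averaged, and -0.0093 for Tgfbr1 and the transgene averaged. Over the fits without 1 array, training in wild-type mice ranged from -0.19 to 0.042 log2 for Acvr1b, -0.075 to 0.072 for Smad3, -0.12 to 0.030 for its second probe set and -0.078 to 0.037 for Bmpr1a. Training in transgenic mice ranged from -0.071 to 0.093 for Acvr2a, -0.11 to 0.021 for Smad2 and -0.057 to 0.33 for the second Smad3 probe set. The transgene in untrained mice ranged from -0.023 to 0.14 for Acvr2a, -0.024 to 0.096 for Smad2, -0.071 to 0.0092 for Smad3, -0.0051 to 0.17 for Tgfbr1 and -0.0009 to 0.090 for Bmpr1a. Training averaged ranged from -0.047 to 0.14 for the second Smad3 probe set, and the transgene averaged from -0.030 to 0.056 for Tgfbr1. The interaction ranged from -0.029 to 0.098 for Smad2, -0.015 to 0.059 for Smad7 and -0.021 to 0.36 for the second Smad3 probe set.

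No paired analysis was possible because the mouse numbers differ between all groups. The number of arrays limits the precision, and for arrays no counting depth exists. Fst lay below the filter, so its signal over background limits what its levels show.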
